A study of Mus musculus with 2 samples.

Results

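The skeletal muscle contractile apparatus was examined as 45 genes of the sarcomere, of calcium handling and of muscle energy metabolism, all of which were found by symbol among the 24421 rows of the deposited count table. The table held 1 RNA-Seq library of rib chondrocytes, freed from newborn mouse cartilage by collagenase after an earlier digestion that removed soft tissue, and kept for no more than 2 passages. The second library came from primary dermal fibroblasts of newborn mouse dorsal skin, also freed by collagenase. No treatment or genetic change was given for either cell type, and strain and sex are not given in the sources used here. Each value is a read count from a single bulk library per cell type, so no difference below has a replicate check and no p-value was computed.

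The sarcomere is the repeating unit of striated muscle, in which thick filaments of myosin slide along thin filaments of actin. Calcium released from the sarcoplasmic reticulum binds troponin C and frees the thin filament for myosin. In mouse skeletal muscle, embryonic and neonatal isoforms of these proteins come first and are largely replaced after birth by adult fast and slow isoforms. Neither hyaline cartilage nor dermal fibroblasts are built on sarcomeres, but rib cartilage is bordered by intercostal muscle and mouse dorsal skin by a thin sheet of striated muscle. Whether the reads described here came from such muscle was not tested.

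The libraries held 18788599 and 17563724 counts, in the order chondrocytes and dermal fibroblasts, which is kept throughout for paired values. Most of the markers listed followed the labels of the cell types. *Col2a1*, the collagen of cartilage, had 1447098 and 0 counts, *Acan* (aggrecan) had 148105 and 35, *Col9a1* (a cartilage collagen) had 92699 and 1, and all 6 chondrocyte markers listed were over 2-fold higher in chondrocytes. Of the collagens of skin and bone, *Col1a1* had 39143 and 322379 counts, *Col1a2* had 34091 and 265777 and *Col3a1* had 32090 and 273385, and 5 of the 6 fibroblast markers were over 2-fold higher in dermal fibroblasts.

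Promoter sequences are shown for both sarcomeric actins, for both developmental myosin heavy chains, for *Tnnt2*, one of the members that were higher in dermal fibroblasts, and for *Casq1*, which had one of the largest folds in chondrocytes. Each is the run of 250 bases before a transcript start annotated by RefSeq (GRCm38.p6), written 5′ to 3′ on the strand of the gene. Capitals mark CAGCTG (an E-box of the kind bound by myogenic factors), TATAAA on either strand, the CArG box (bound by serum response factor) and the MEF2 box.

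*Acta1* promoter (chr8:123894776-123895025, minus strand): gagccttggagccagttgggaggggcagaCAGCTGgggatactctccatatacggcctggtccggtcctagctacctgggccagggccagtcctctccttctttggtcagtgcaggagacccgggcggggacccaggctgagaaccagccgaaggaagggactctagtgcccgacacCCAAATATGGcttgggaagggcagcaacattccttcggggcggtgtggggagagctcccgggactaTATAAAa
*Actc1* promoter (chr2:114052876-114053125, minus strand): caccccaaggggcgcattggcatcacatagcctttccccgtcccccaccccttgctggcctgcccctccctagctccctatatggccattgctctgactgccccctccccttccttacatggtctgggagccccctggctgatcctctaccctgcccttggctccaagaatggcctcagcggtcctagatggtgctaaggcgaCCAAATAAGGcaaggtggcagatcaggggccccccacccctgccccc
*Myh3* promoter (chr11:67078050-67078299, plus strand): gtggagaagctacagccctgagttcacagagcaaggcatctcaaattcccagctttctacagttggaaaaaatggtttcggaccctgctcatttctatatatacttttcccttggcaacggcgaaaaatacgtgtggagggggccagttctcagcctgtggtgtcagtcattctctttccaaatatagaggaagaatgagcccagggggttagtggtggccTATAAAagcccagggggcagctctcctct
*Myh8* promoter (chr11:67276874-67277123, plus strand): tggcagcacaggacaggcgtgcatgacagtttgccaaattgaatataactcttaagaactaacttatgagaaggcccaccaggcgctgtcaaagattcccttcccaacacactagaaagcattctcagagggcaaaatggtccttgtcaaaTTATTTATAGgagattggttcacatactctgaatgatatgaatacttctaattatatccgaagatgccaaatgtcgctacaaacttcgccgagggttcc
*Tnnt2* promoter (chr1:135836084-135836333, plus strand): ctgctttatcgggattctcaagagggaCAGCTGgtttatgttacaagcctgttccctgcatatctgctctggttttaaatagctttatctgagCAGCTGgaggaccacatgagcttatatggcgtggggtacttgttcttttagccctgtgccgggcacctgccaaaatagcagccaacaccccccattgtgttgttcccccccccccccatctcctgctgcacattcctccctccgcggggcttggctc
*Casq1* promoter (chr1:172219896-172220145, minus strand): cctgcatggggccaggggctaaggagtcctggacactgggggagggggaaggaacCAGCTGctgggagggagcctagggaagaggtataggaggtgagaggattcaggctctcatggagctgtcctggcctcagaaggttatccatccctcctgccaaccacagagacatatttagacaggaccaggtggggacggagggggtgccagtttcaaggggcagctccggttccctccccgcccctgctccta

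The *Acta1* and *Actc1* promoters each held 1 CArG box, and *Acta1* also held CAGCTG and TATAAA. For *Myh3* and *Tnnt2*, the transcript start used lies a few bases inside the whole gene span given with their counts. The *Tnnt2* promoter, the more upstream of the windows listed for this gene, held 2 copies of CAGCTG, and *Casq1* held 1. *Myh3* held TATAAA alone, and *Myh8* held 1 MEF2 box and 1 TATAAA on the opposite strand that overlapped it. RefSeq promoters were found for 37 of the 45 genes, as 43 windows, some of which overlap in genes with several starts. On both strands, CAGCTG was present in 44.2% of these windows against 13% of all 32851 promoter windows. The CArG box was present in 11.6% against 1.47%, the MEF2 box in 16.3% against 2.92%, and TATAAA in 20.9% against 12.4%. These are letter matches and show no binding.

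Transcripts of the contractile apparatus were present in both libraries, and most of them were more abundant in chondrocytes. The 45 genes summed to 54621 and 40479 counts, which was 0.291% and 0.231% of the library. The sum was 1.39-fold higher in chondrocytes after scaling (95% counting interval 1.37 to 1.40). Folds are chondrocytes over dermal fibroblasts, from counts divided by TMM-scaled library sizes, with counts under 3 set to 3. The intervals are Clopper-Pearson intervals for counting error alone, because reads were not tagged with molecular identifiers and need not be separate molecules. In bulk samples such as these, fewer cells that express a gene and less of its RNA per such cell cannot be told apart.

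A mean of at least 10 counts over both libraries was reached by 41 of the 45 genes and by 13825 genes of the table. *Myl2* (slow regulatory light chain) had 2 and 0 counts, *Myl3* (slow essential light chain) had 6 and 6, and *Myoz1* (fast calsarcin) and *Mybpc2* (fast myosin binding protein C) each had 6 and 0. These 4 genes were too shallow to compare and stay out of the counts of folds. The fold was above 1 for 37 of the 41 genes, against 49.9% of all genes. The whole interval lay above 1 for 31 genes, against 35.8% of all genes, and below 1 for *Actc1*, *Tnnt2* and *Ckm*, against 36.6%. Of the 41 genes, 15 (36.6%) were over 2-fold higher in chondrocytes, where 10.9% of all 13825 genes were called in this direction. None of the 41 was over 2-fold higher in dermal fibroblasts, where 15.3% of all genes were called. The whole interval lay above 2-fold for 9 genes (22%, against 7.04% of all genes), namely *Myh7*, *Casq1*, *Mb*, *Myh1*, *Tnnt3*, *Actn3*, *Tnnt1*, *Des* and *Eno3*. The median log2 fold was 0.62 over the 41 genes and 0.00 over all genes, with a range from -0.51 for *Ckm* to 2.54 for *Myh7*. Set against the summed reads of the 45 genes in each library, a scaling chosen after seeing the data, the interval lay above 1 for 18 of the 41 genes, below 1 for 10 and held 1 for 13.

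**Figure D1:**
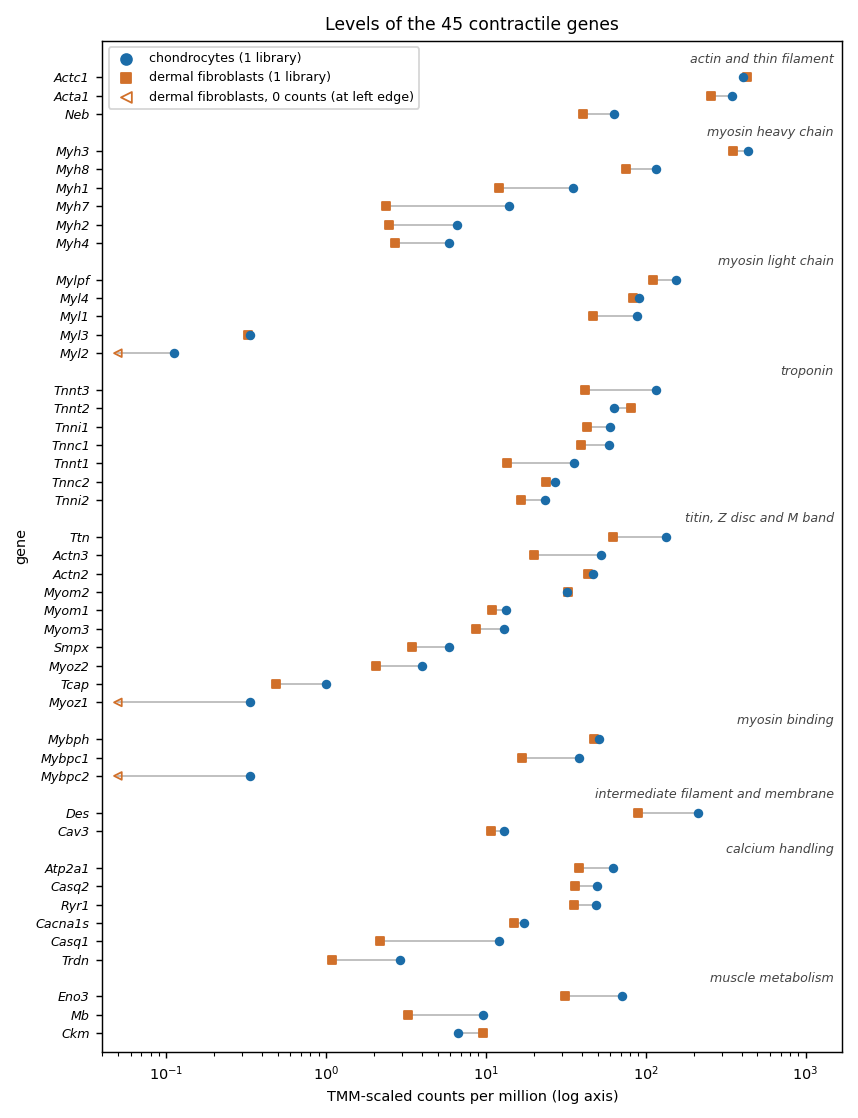
TMM-scaled counts-per-million values (CPM, log axis) of the 45 genes, grouped by role, with a circle for the chondrocyte library and a square for the dermal fibroblast library. The 2 symbols of *Actc1*, *Myom2* and *Mybph* nearly coincide, and those of *Myh7* and *Casq1* lie widely apart. For *Myl2*, *Myoz1* and *Mybpc2*, the dermal fibroblast symbol is an open triangle at the left edge, because that library had 0 counts.

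The myosin heavy chains are the motors of the thick filament. Their skeletal genes *Myh3*, *Myh2*, *Myh1*, *Myh4* and *Myh8* lie in this order on chromosome 11 of GRCm38, from 67078273 (the start of *Myh3*) to 67308634 (the end of *Myh8*). The slow gene *Myh7* lies on chromosome 14 (54970684 to 54994626). *Myh3*, the embryonic heavy chain, had 7784 and 6497 counts, a fold of 1.23 (interval 1.19 to 1.27). *Myh8*, the neonatal heavy chain, had 2066 and 1383 counts, a fold of 1.53 (interval 1.43 to 1.64). Both developmental chains were thus a little higher in chondrocytes. The adult chains had far fewer reads and larger folds. *Myh1* (type IIx) had 626 and 223 counts and was 2.88-fold higher (interval 2.47 to 3.37). *Myh2* (type IIa) had 119 and 46 counts and was 2.66-fold higher (interval 1.88 to 3.82), and *Myh4* (type IIb) had 105 and 50 counts and was 2.16-fold higher (interval 1.53 to 3.08). *Myh7*, the slow chain of type I fibers, which the heart also expresses, had 250 and 44 counts. It had the highest point value among the 41 folds, at 5.84 (interval 4.22 to 8.23). This fold was not separated by its interval from that of *Casq1* (3.94 to 7.98).

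Within each library, the heavy chain reads were mostly developmental, and less so in chondrocytes. *Myh3* and *Myh8* together took 89.95% of the reads of the 6 heavy chain genes in chondrocytes (exact binomial interval 89.4 to 90.5) and 95.6% in dermal fibroblasts (interval 95.1 to 96.0). *Myh3* alone took 71.1% and 78.8%. *Myh8* went the other way within the developmental pair, at 18.9% (interval 18.1 to 19.6) and 16.8% (interval 16.0 to 17.6). *Myh1* took 5.72% and 2.71%, and *Myh7* took 2.28% and 0.534%. A share within a library does not depend on how the libraries are scaled against each other.

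**Figure D2:**
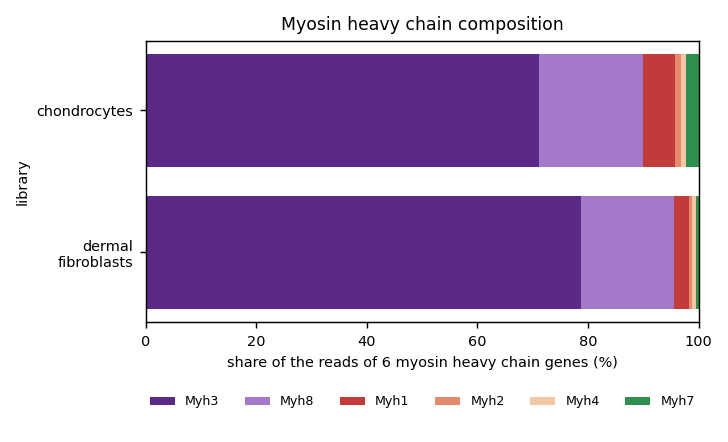
Stacked bars of the share (%) that each of 6 myosin heavy chain genes took of their summed reads, for the chondrocyte and the dermal fibroblast library. *Myh3* and *Myh8* (purple) fill 89.95% of the chondrocyte bar and 95.6% of the dermal fibroblast bar, and the green *Myh7* segment is 2.28% and 0.534%.

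Some heavy chain genes are alike over stretches longer than a 75 bp read. Of the 75-base windows of the longest coding transcript in GENCODE vM1, 16.6% of *Myh1*, 16.3% of *Myh2*, 12.9% of *Myh8* and 9.68% of *Myh4* were identical to a window of another gene, mainly of this cluster, so the split among these genes is uncertain. *Myh3* shared 1.86% of its windows. *Myh7* shared 15.3% with *Myh6*, a heart heavy chain gene beside it, which had 56 and 9 counts and was 6.39-fold higher in chondrocytes (interval 3.14 to 14.7). How far the *Myh6* reads were reads of *Myh7* was not tested. The other heart genes listed were near 0. *Myl7*, *Pln* and *Nkx2-5* had 0 counts in both libraries, *Mybpc3* had 1 and 1 and *Nppa* had 3 and 6. *Tnni3* had 4 and 14, *Nppb* had 2 and 12, and *Ryr2* had 0 and 10.

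Actin forms the thin filament. *Actc1*, the cardiac actin that is also the main actin of embryonic skeletal muscle, lies on chromosome 2 (114047282 to 114052875) and had 7288 and 7970 counts. Its fold was 0.939 (interval 0.910 to 0.970), and it turned to 1.02 when the libraries were scaled by *Actb*. *Acta1*, the adult skeletal actin, lies on chromosome 8 (123891758 to 123894775) and had 6259 and 4705 counts, a fold of 1.37 (interval 1.32 to 1.42). *Actc1* took 53.8% of the reads of the pair in chondrocytes (interval 53.0 to 54.6) and 62.9% in dermal fibroblasts (interval 62.0 to 63.7). Reads of these paralogs could largely be told apart, since *Actc1* shared 0 of its 1399 windows and *Acta1* shared 3 of 1372, with *Actb*. *Neb*, the giant protein that runs along the thin filament, had 1142 and 745 counts, a fold of 1.57 (interval 1.43 to 1.73).

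The light chains stabilize the neck of the myosin head. *Myl4*, the embryonic and atrial essential light chain, had 1636 and 1530 counts and a fold of 1.10 (interval 1.02 to 1.18), which was 0.9996 with total counts. *Myl1*, the fast essential light chain, had 1580 and 856 counts, a fold of 1.90 (interval 1.74 to 2.06). *Mylpf*, the fast regulatory light chain, had 2779 and 2035 counts, a fold of 1.40 (interval 1.32 to 1.49). The embryonic chain was therefore nearly level between the cell types, and *Myl1* was not. *Myl4* took 50.8% of the essential light chain reads in chondrocytes (interval 49.0 to 52.5) and 64.0% in dermal fibroblasts (interval 62.0 to 65.9). Slow light chains were almost not read. *Myl2* took 0.0719% of the regulatory light chain reads in chondrocytes (2 of 2781), and 0 of 2035 in dermal fibroblasts allows a share of up to 0.147%. This limit, like those below for shares at 0, is 3 reads of the total and not the bound of an exact interval.

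Troponin makes the thin filament respond to calcium, with the subunits T (binds tropomyosin), I (inhibits) and C (binds calcium). Of the 4 groups with an isoform classed here as developmental, the troponin T genes showed the widest difference in its share. *Tnnt2*, the cardiac and embryonic troponin T (chromosome 1, 135836315 to 135852268), had 1137 and 1495 counts and was higher in dermal fibroblasts, with a fold of 0.781 (interval 0.723 to 0.844). *Tnnt3*, the fast troponin T (chromosome 7, 142498771 to 142516213), had 2072 and 772 counts and was 2.76-fold higher in chondrocytes (interval 2.54 to 3.0). *Tnnt1*, the slow troponin T (chromosome 7, 4504569 to 4515975), had 638 and 250 counts and was 2.62-fold higher (interval 2.26 to 3.05). *Tnnt2* took 29.6% of the troponin T reads in chondrocytes (interval 28.1 to 31.0) and 59.4% in dermal fibroblasts (interval 57.5 to 61.3). The order of *Tnnt2* and *Tnnt3* was thus turned between the libraries.

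Troponins I and C moved less. *Tnni1* (slow) had 1068 and 795 counts, a fold of 1.38 (interval 1.26 to 1.51), and *Tnni2* (fast) had 420 and 304 counts, a fold of 1.42 (interval 1.22 to 1.65). *Tnni1* lies beside *Tnnt2* on chromosome 1 (135783033 to 135810989), and *Tnni2* lies beside *Tnnt3* on chromosome 7 (142441816 to 142444410). These neighbors had different folds. *Tnnc1* (slow and cardiac) had 1060 and 729 counts, a fold of 1.49 (interval 1.36 to 1.64). *Tnnc2* (fast) had 484 and 439 counts and a fold of 1.13 whose interval held 1 (0.993 to 1.29). In the GENCODE vM1 transcripts, *Tnnc2* shared 40.6% of its windows with *Ube2c*, which had 1145 and 622 counts, so the count of *Tnnc2* is uncertain.

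Grouped by isoform class, the developmental members had the smallest median fold. The share of all 13825 genes over 2-fold higher in chondrocytes, 10.9%, applies beside each count, and classes this small give few calls at that share. None of the 5 (*Myh3*, *Myh8*, *Actc1*, *Myl4* and *Tnnt2*) was over 2-fold higher in chondrocytes, and their log2 folds ran from -0.36 to 0.62 with a median of 0.14. Of the 11 fast members that passed the count minimum, 6 were over 2-fold higher and the median log2 fold was 1.11. Of the 7 slow members, 3 were over 2-fold higher and the median was 0.96. The other 18 genes are not split by isoform, 6 of them were over 2-fold higher, and their median was 0.51. Developmental genes took 36.5% of all contractile reads in chondrocytes and 46.6% in dermal fibroblasts, fast genes took 19.2% and 14.4%, and slow genes took 8.55% and 7.0%.

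**Figure D3:**
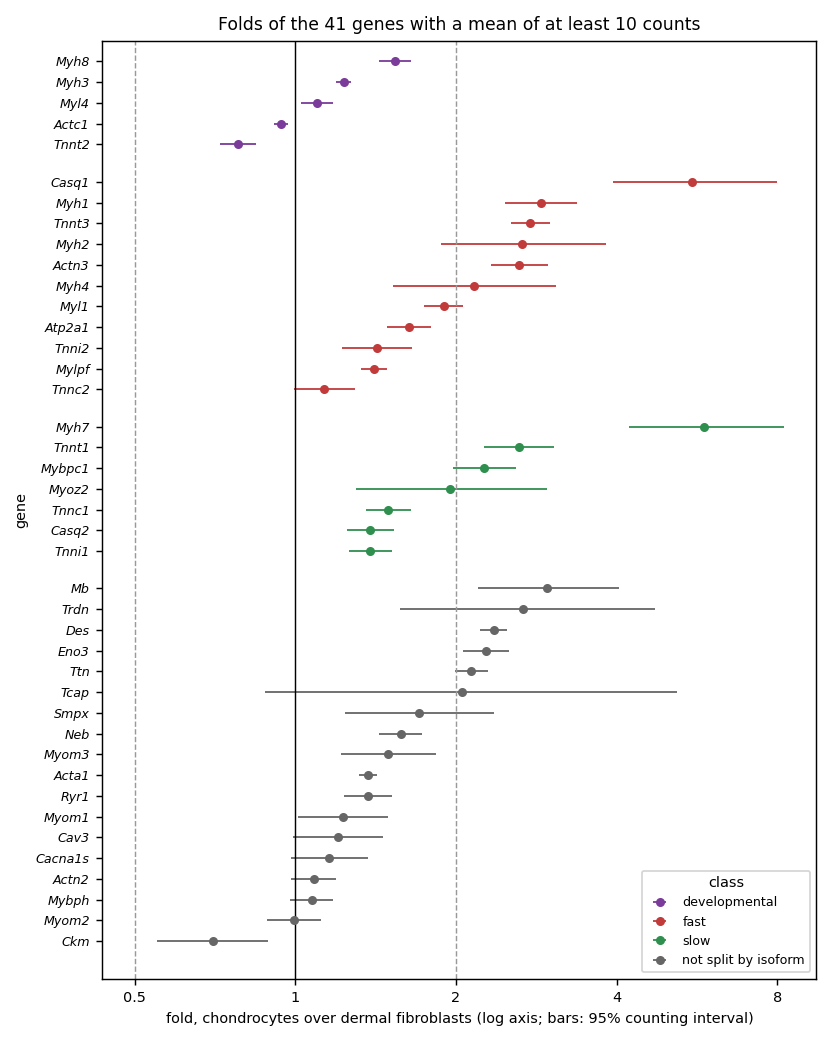
Fold (chondrocytes over dermal fibroblasts, log axis) of the 41 genes with a mean of at least 10 counts, colored by isoform class, with bars for the 95% counting interval and dashed lines at 2-fold. All 5 developmental genes lie between the dashed lines (*Actc1* lies below 1 here but at 1.02 when scaled by *Actb*), 6 of 11 fast and 3 of 7 slow genes lie above 2-fold, and none of the 41 lies below 0.5.

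In all 4 groups of contractile genes with an isoform classed here as developmental, its share was higher in dermal fibroblasts. The direction holds for this classing only. *Tnni1*, *Tnnc1* and *Casq2* were classed as slow and not also as developmental, and their shares, given below, had no common direction. The counting intervals of the libraries did not overlap. For the folds of single genes, separation beyond counting error was common. The whole interval of the fold lay above 1 for 35.8% of all genes and below 1 for 36.6%. That is a different measure from a share, and how often isoform shares separate in general was not computed. The slow shares had no common direction like that of the developmental shares. Of 9 slow and fast pairs, the slow share was higher in chondrocytes with separate intervals in 2, higher in dermal fibroblasts in 1, and overlapping in 6. *Myh7* took 22.7% of the adult heavy chain reads in chondrocytes (interval 20.3 to 25.3) and 12.1% in dermal fibroblasts (interval 8.95 to 15.9). *Tnnc1* took 68.7% and 62.4% of the troponin C reads, a share that rests on the uncertain count of *Tnnc2*. *Casq2* went the other way, at 80.5% (interval 78.0 to 82.8) and 94.3% (interval 92.3 to 95.9) of the calsequestrin reads. The slow shares of troponin T (23.5% and 24.5%) and troponin I (71.8% and 72.3%) differed by less than their counting intervals. Slow isoforms made up nearly all reads of myosin binding protein C and calsarcin. Here *Mybpc2* had 0 of 310 reads in dermal fibroblasts, which allows a share of up to 0.968%, and *Myoz1* had 0 of 38, which allows up to 7.89%.

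**Figure D4:**
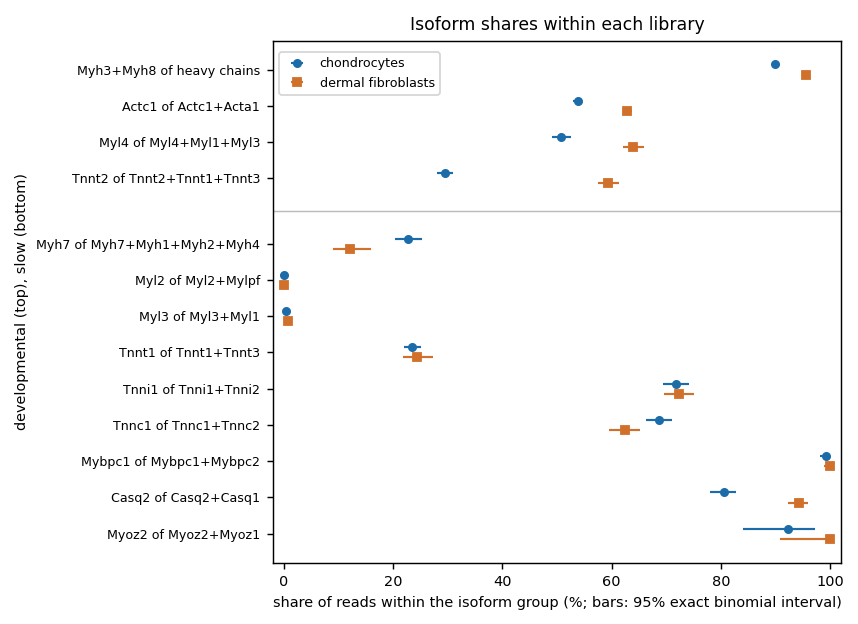
Share of reads (%) of the isoform classed as developmental (4 groups, top) or slow (9 pairs, bottom) within each library. Bars are the 95% exact binomial interval. All 4 developmental shares are higher in dermal fibroblasts (squares) than in chondrocytes (circles), most widely for *Tnnt2* (59.4% and 29.6%), and the slow shares have no common direction.

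Titin and the Z disc and M band proteins hold the filaments in register. *Ttn*, the giant spring of the sarcomere, had 2402 and 1156 counts, a fold of 2.13 (interval 1.99 to 2.29). *Actn3*, the alpha-actinin of fast fibers, had 947 and 370 counts and was 2.63-fold higher (interval 2.33 to 2.97), while *Actn2*, the alpha-actinin of all fibers, had 842 and 800 counts and a fold of 1.08 (interval 0.980 to 1.19), which was 0.984 with total counts. The alpha-actinins therefore differed from each other. Among the myomesins of the M band, *Myom2* had 580 and 600 counts and a fold of 0.993 (interval 0.884 to 1.11) that turned to 1.08 with *Actb*, *Myom1* had 239 and 200 counts and *Myom3* had 234 and 161. The Z disc genes *Smpx* (106 and 64 counts), *Myoz2* (72 and 38) and *Tcap* (18 and 9) had few reads. The interval of *Tcap* ran from 0.876 to 5.19 around a fold of 2.05, so a difference was not detectable at this depth.

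*Mybpc1*, the slow myosin binding protein C, had 682 and 310 counts and was 2.26-fold higher (interval 1.97 to 2.59). *Mybph*, a related thick filament protein, had 912 and 874 counts and a fold of 1.07 (interval 0.976 to 1.18), which was 0.975 with total counts. It shared 22.4% of its windows with *Adora1*, which had 43 and 38 counts. *Des*, the desmin filament that links neighboring Z discs, had 3790 and 1655 counts and was 2.35-fold higher (interval 2.22 to 2.49). *Cav3*, the caveolin of the muscle membrane, had 233 and 199 counts, a fold of 1.2 whose interval held 1 (0.991 to 1.46).

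Of the 6 calcium handling genes, 5 had the whole interval above 1 (35.8% of all genes did), and their folds were unequal. *Casq1*, the fast calsequestrin that stores calcium in the sarcoplasmic reticulum (chromosome 1, 172209894 to 172219895), had 216 and 40 counts and was 5.55-fold higher (interval 3.94 to 7.98). *Casq2*, the slow and cardiac calsequestrin, had 890 and 662 counts and was 1.38-fold higher (interval 1.25 to 1.53). The fold of *Casq1* thus lay far outside that of its paralog. *Trdn*, which anchors calsequestrin to the release channel, had 52 and 20 counts, a fold of 2.67 (interval 1.57 to 4.72). *Atp2a1*, the fast calcium pump, had 1113 and 700 counts, a fold of 1.63 (interval 1.48 to 1.80). *Ryr1*, the release channel, had 874 and 657 counts, a fold of 1.37 (interval 1.23 to 1.51), and its voltage sensor *Cacna1s* had 311 and 276 counts, a fold of 1.16 whose interval held 1 (0.981 to 1.37).

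The metabolic genes moved in different directions. *Mb*, the oxygen carrier myoglobin, had 173 and 60 counts and was 2.96-fold higher in chondrocytes (interval 2.2 to 4.04). *Eno3*, the muscle enolase of glycolysis, had 1282 and 578 counts and was 2.28-fold higher (interval 2.06 to 2.52). *Ckm*, the muscle creatine kinase, had 120 and 176 counts and the lowest fold of the 41 genes, at 0.700 (interval 0.551 to 0.888). Since the strand setting of the counting was not given, *Eno3* reads cannot be told apart from those of the overlapping gene *Pfn1* (9906 and 10913 counts) where they overlap, nor *Mb* reads from those of *Apol6* (46 and 278). The same limit holds for *Myl4* with *Cdc27* (1537 and 1815 counts), for the *Myl4* share of light chain reads, for *Atp2a1* with *Rabep2* (530 and 491) and for *Tnnt3* with *Prr33* (28 and 40).

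Levels of different genes are compared as TMM-scaled CPM divided by the kilobases of the longest coding transcript (RPKM). *Actc1* had the highest level of the 45 genes in both libraries, at 276 and 294 RPKM, followed by *Acta1* at 241 and 177 RPKM and *Mylpf* at 202 and 144 RPKM. These ranks were separated by more than the counting error in each library. In chondrocytes *Tnnt3* had rank 4 at 107 RPKM and *Myl4* rank 5 at 96.8, with separate intervals. *Tnnc1* and *Myl1*, at 82.0 and 81.5 RPKM, did not differ beyond counting error, and neither did *Myh3* and *Des* at 72.0 and 69.8. In dermal fibroblasts *Myl4* (88.1 RPKM) and *Tnnt2* (74.0) had ranks 4 and 5, *Myh3* (58.5) and *Tnnc1* (54.9) did not differ beyond counting error, and *Tnnt3* had rank 9 at 38.9 RPKM. A level of at least 1 RPKM was reached by 39 of the 45 genes in chondrocytes and 35 in dermal fibroblasts. With the length of all annotated exons, the level of *Myl4* was 19.7 and 17.9 RPKM, since its annotation holds long extra exons. Other levels in chondrocytes moved too with that length, with *Tnnc1* at 56.3 RPKM and *Myl1* at 49.8, both under *Myh3* at 70.6, and *Actc1* and *Acta1* at 251 and 241. The ranks therefore depend on the length used.

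Other genes of striated muscle were counted in the same way. Of 21 further sarcomere genes, 4 exceeded 2-fold toward chondrocytes (10.9% of all genes did), 1 exceeded it toward dermal fibroblasts (15.3% of all genes did), and the median log2 fold was 0.38. The tropomyosins *Tpm1* (10162 and 11272 counts) and *Tpm3* (5899 and 7019) and the filamin *Flnc* (5279 and 5470), which cells other than striated muscle also express, had the most reads and were within 2-fold. The largest fold of this list was that of *Xirp2*, an actin-binding protein of striated muscle, with 142 and 13 counts and a fold of 11.2 (interval 6.35 to 21.6), named after its value was seen. Of 11 tested genes of calcium handling and excitation outside the 45, 2 were over 2-fold higher in chondrocytes, a share (18.2%) near the 10.9% of all genes, none was lower by that much, and the median log2 fold was 0.85. The most read of them were *Asph* (2216 and 1744 counts), *Srl* (1235 and 1009) and *Cacna2d1* (677 and 648).

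Most genes of muscle precursors were higher in chondrocytes. Of 6 tested myoblast and satellite cell genes, 5 were over 2-fold higher in chondrocytes, against 10.9% of all genes, with a median log2 fold of 2.43. Among these, *Pax7* (120 and 4 counts) and *Myf5* (36 and 1) had few reads in dermal fibroblasts. *Pax3* (4 and 12 counts) and *Myf6* (8 and 3) of the same list were too shallow to compare. *Myod1*, which commits cells to the muscle lineage, had 2328 and 496 counts, a fold of 4.82 (interval 4.37 to 5.32). *Myog*, which drives terminal differentiation, had 3526 and 1728 counts, a fold of 2.10 (interval 1.98 to 2.22). The muscle integrin gene *Itga7* had 1442 and 919 counts, a fold of 1.61 (interval 1.48 to 1.75). *Mymk*, the fusion factor listed under its older symbol *Tmem8c*, had 1190 and 1028 counts, a fold of 1.19 (interval 1.09 to 1.29). The muscle fusion list also holds *Cdh15* and *Myod1*, which the preceding list shares and which were the 2 of its 4 genes over 2-fold higher, against 10.9% of all genes. Of 8 smooth muscle genes, none exceeded 2-fold toward chondrocytes (10.9% of all genes did) and 5 exceeded it toward dermal fibroblasts (15.3% of all genes did), among them *Acta2* (9075 and 25773 counts) and *Tagln* (2041 and 7518). *Smtn* (2273 and 1877 counts) had a fold of 1.24 (interval 1.17 to 1.32) and *Mylk* (1238 and 962) a fold of 1.32 (interval 1.21 to 1.44), both higher in chondrocytes. The summed level of the smooth muscle list was 854 and 2089 CPM, and its part in the reads of *Des*, which smooth muscle also expresses, was not tested.

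**Figure D5:**
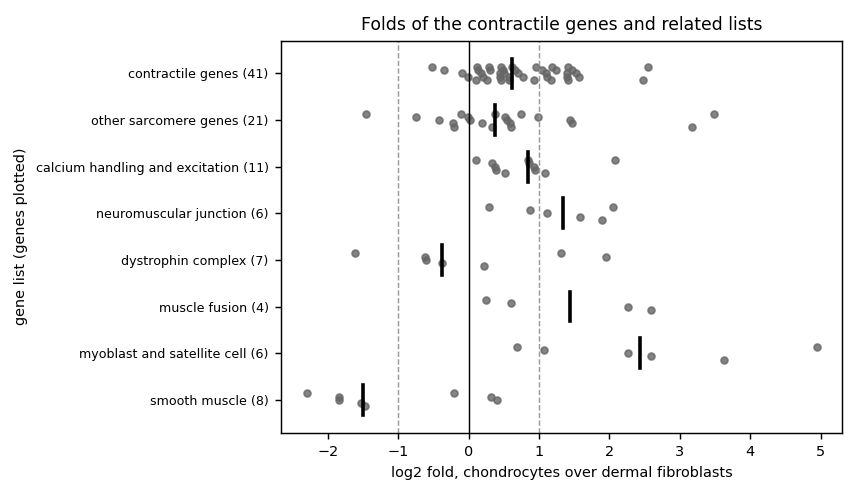
Log2 fold (chondrocytes over dermal fibroblasts) of each tested gene in the contractile genes and 7 related lists, with a bar at the median and dashed lines at 2-fold. The contractile genes center on 0.62, the myoblast and satellite cell genes on 2.43 and the smooth muscle genes on -1.50.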

How the data were processed

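RNA-Seq libraries were prepared with a stranded mRNA kit and sequenced as 75 bp single-end reads. The authors called bases with CASAVA 1.8.2, mapped reads to mm10 using TopHat2 2.0.13, Bowtie2 2.2.3 and SAMtools 0.1.19, and deposited raw read counts per gene symbol without scaling. The counting program, its annotation and its strand setting are not given in the sources used here, which leaves reads of overlapping and near-identical genes uncertain.

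The 45 genes and all lists were chosen with earlier results of these data known. From the counts, TMM factors (0.954 for chondrocytes and 1.05 for dermal fibroblasts) were computed with edgeR 4.0.16 in R 4.3.3, and folds, shares and 95% Clopper-Pearson intervals with scipy 1.17.1 and pandas 2.3.3 in Python 3.11.15. Counts under 3 were set to 3, and genes with a mean of at least 10 counts were compared. With 1 library per cell type there was no test, and the false discovery rate that the study's methods name was not recomputed. All 45 genes are accounted for. Of each other list, the 3 genes with the most counts were named, plus *Chrng*, *Chrne*, *Myod1*, *Myog*, *Col2a1*, *Acan* and *Col1a1*, 1 gene of the dystrophin complex list is not reported here, and genes outside this rule are named beside the result they touch. Alternatives were other scalings (DESeq2 1.42.0 among them), floors, thresholds, count minimums and gene lengths, and removal of paralogs. Calculations were tested on simulated counts. Lengths and 75-base windows come from GENCODE vM1 (NCBIM37), and positions and promoters from RefSeq (GRCm38.p6, the build of mm10).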

Additional observations from a re-analysis of the deposited data

How the results depend on the processing

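No paired analysis was possible because the chondrocytes and the dermal fibroblasts were sequenced once each. The 15 genes over 2-fold higher in chondrocytes became 12 with total counts, 17 with *Actb*, 21 with a fold over 1.5 and 2 with a fold over 4, and 9 had the whole interval above 2-fold. No gene was over 2-fold higher in dermal fibroblasts under any of the alternatives. Relative to TMM, total counts moved the log2 fold of every gene by -0.14 and *Actb* by 0.12, and the median log2 fold of the 41 genes was 0.48 and 0.74. Scaled by the summed reads of the 45 genes, an alternative chosen after seeing the data, the median was 0.15 and 4 genes were over 2-fold higher in chondrocytes, *Myh7*, *Casq1*, *Mb* and *Myh1*. Of 328 folds under 8 alternatives, 26 left the counting interval and 7 crossed 1, all of them in *Actc1*, *Myl4*, *Mybph*, *Myom2* and *Actn2*, and no gene beyond 2-fold changed direction. The developmental share of heavy chain reads was 92.1% and 96.1% without *Myh7*, and 71.1% and 78.8% with *Myh8* counted as adult. Per kilobase, it stayed within the counting intervals, and the slow share was still higher in chondrocytes in 2 of 9 pairs. The slow share of troponin C rests on the uncertain count of *Tnnc2*. Depth limits *Myl2*, *Myl3*, *Myoz1*, *Mybpc2* and *Tcap*.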

Other observations

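The neuromuscular junction genes gave another pair of developmental and adult isoforms. *Chrng*, the fetal subunit of the acetylcholine receptor, had 752 and 423 counts in chondrocytes and dermal fibroblasts, a fold of 1.83 (interval 1.62 to 2.06). *Chrne*, the adult subunit that takes its place, had 4 and 0 counts. *Chrng* thus took 99.5% of the reads of the pair in chondrocytes, and 0 of 423 reads for *Chrne* in dermal fibroblasts allows a share of up to 0.709% (3 reads of the total). The exact binomial intervals of the *Chrng* share, 98.65 to 99.86 and 99.13 to 100, overlapped. Of the 6 tested junction genes, 4 were over 2-fold higher in chondrocytes, against 10.9% of all genes, with a median log2 fold of 1.34. *Chrna1*, the alpha subunit, had 2279 and 567 counts, a fold of 4.13 (interval 3.76 to 4.53), and *Chrnd*, the delta subunit, had 474 and 163 counts, a fold of 2.99 (interval 2.49 to 3.59).

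The dystrophin complex, which ties the muscle membrane to the matrix, had genes beyond 2-fold in both directions. Of the 7 genes reported, 2 were over 2-fold higher in chondrocytes (10.9% of all genes were) and 1 in dermal fibroblasts (15.3% of all genes were), and the median log2 fold was -0.38. *Dag1* (4695 and 7310 counts) and *Sgcb* (725 and 971), the genes of this list with the most reads, were within 2-fold. *Dmd*, dystrophin itself, had 104 and 326 counts and was 3.05-fold higher in dermal fibroblasts. *Sgcd* had 475 and 126 counts and was 3.87-fold higher in chondrocytes. *Dmd* was named after its values were seen.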
